A study of Mus musculus with 2 samples.

Results

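The Tfap2d excitatory-like neurons are 430 of 21941 called cells of the mouse forebrain, 112 of 9086 in the wild-type library and 318 of 12855 in the library labelled Cyfip2 knockout. They were chosen by measured counts: a cell had to hold at least 2 unique molecular identifiers (UMIs, each counting 1 captured transcript) of Tfap2d, at most 1 UMI summed over the GABAergic genes Dlx1, Dlx2 and Dlx6os1, and at most 1 UMI summed over the division genes Top2a, Mki67 and Cdk1. These 7 genes are therefore described and not used as evidence. Both libraries come from forebrains of embryos at embryonic day 18.5, 1 of genotype WT and 1 labelled Cyfip2 knockout, and each pooled 2 forebrains, so that differences between embryos cannot be told apart from differences between genotypes. No other allele or treatment is named in the labels. With 1 library per group no test between the groups is possible, and every interval is a 95% interval that covers counting error only.

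Tfap2d encodes AP-2 delta, a transcription factor of the AP-2 family. AP-2 factors bind GC-rich DNA as dimers and are known for roles in neural crest, skin and parts of the brain, and AP-2 delta itself is best known for its part in the developing midbrain and retina. The gene (ENSMUSG00000042596) lies on the plus strand of chromosome 1, from 19103022 to 19166346 in mm10 (GENCODE annotation). Thsd7a encodes a membrane protein with thrombospondin repeats, and Nrp2 encodes neuropilin-2, a receptor of class 3 semaphorins that guides axons and migrating neurons. In the embryonic pallium, excitatory neurons arise from radial glia either directly or through intermediate progenitors that carry the transcription factor Eomes, then switch on Neurod2, Neurod6 and Tbr1.

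The libraries held 123978461 and 150828048 UMIs, in this and every later pair with wild type first and the knockout-labelled library after it. Called cells had medians of 9998 and 8273 UMIs, and 32 cell barcodes occurred in both libraries, none of them in Tfap2d cells of both. Cyfip2, the targeted gene, was not depleted in the Tfap2d cells of the knockout-labelled library: it stood at 86.0 (70.4 to 104) and 76.8 (67.4 to 87.0) CPM, the UMIs of a gene summed over cells per 1000000 UMIs of those cells, from 105 and 244 UMIs. The targeted part of the gene is not given in the sources used here, so these counts may lie outside it and the genotype rests on its label.

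Tfap2d cells made up 1.23% (1.02 to 1.48) of wild-type cells and 2.47% (2.21 to 2.76) of knockout-labelled cells, a ratio of 2.01 (1.61 to 2.51). The difference was larger among cells with many Tfap2d UMIs. Cells with 2 Tfap2d UMIs numbered 60 and 135, those with 3 numbered 23 and 68, and those with 4 numbered 16 and 43. Cells with at least 5 UMIs numbered 13 and 72, which is 11.6% (6.33 to 19.0) and 22.6% (18.2 to 27.6) of the Tfap2d cells, and the highest cell held 13 and 20. Just outside the threshold stood 165 and 310 cells with 1 Tfap2d UMI that met the other limits. Of the 137 and 367 cells with at least 2 Tfap2d UMIs, 3 and 23 were left out by the Dlx limit alone, 20 and 20 by the division limit alone, and 2 and 6 by both. The cells with at least 3000 UMIs, 8163 and 10965 of them, were also thinned to 3000 UMIs each. The Dlx and division limits were applied before thinning. Cells that met them and kept at least 1 Tfap2d UMI made up 1.78% (1.5 to 2.09) and 2.84% (2.53 to 3.16). Their ratio was 1.60 (1.31 to 1.96). Unthinned, with the same threshold of 1 UMI, the ratio over all called cells was 1.60 (1.39 to 1.85).

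**Figure D1:**
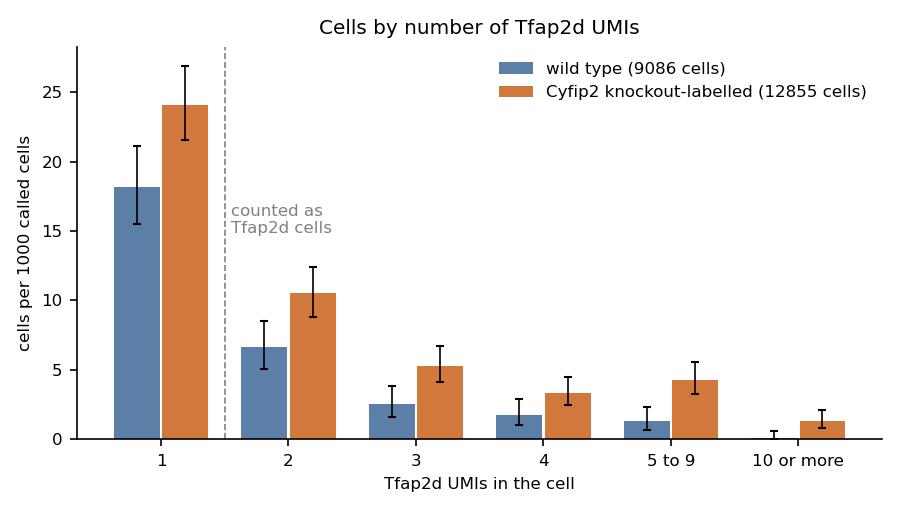
Cells per 1000 called cells (y axis) by the number of Tfap2d UMIs in the cell (x axis), among cells that met the Dlx and division limits; bars are the 2 libraries, error bars are exact 95% binomial intervals, and the dashed line is the threshold. Cells with at least 5 UMIs numbered 13 in the wild-type and 72 in the knockout-labelled library.

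Tfap2d UMIs were also counted in cells of other types. None of 89 wild-type cells with at least 3 UMIs of the microglial genes C1qa, C1qb and Csf1r had a Tfap2d UMI. A limit of 3 counts allows a share of up to 3.37% there, and the upper end of the exact interval is 4.06%. Of 198 such knockout-labelled cells 3 had one (1.52%, 0.314 to 4.36). The median depths were 14596 and 14220 UMIs. Of the 16 Tfap2d UMIs in those 198 cells, 13 lay in 1 cell, described with the library comparison. Among GABAergic cells, with at least 3 UMIs of the Dlx genes, 0.713% (0.390 to 1.19) and 1.49% (1.11 to 1.96) had one, at medians of 8879 and 8101 UMIs. Dividing cells, with at least 3 UMIs of the division genes, had one more often, in 5.99% (4.52 to 7.76) and 4.56% (3.46 to 5.88), at medians of 17929 and 14812 UMIs. They are not taken as cells that lack the gene: in cluster 10 of all cells, led by the division genes Neil3, Spc25 and Pclaf, 19.6% and 16.0% of cells had a Tfap2d UMI, and in cluster 22, led by histone genes, 0.294% and 0.487% did. The Tfap2d cells themselves had medians of 10581 and 9087 UMIs, close to the 11246 and 9327 of other excitatory neurons.

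These cells carried markers of pallial excitatory neurons. The reference for this description is 4987 and 5923 other excitatory neurons, which met the same Dlx and division limits, had no Tfap2d UMI and held at least 3 UMIs of Neurod2, Neurod6, Slc17a6 and Slc17a7. Of the Tfap2d cells, 109 (97.3%) and 312 (98.1%) also held at least 3 UMIs of those 4 genes. Neurod2, a factor of pallial excitatory neurons, stood at 823 and 912 CPM, against 822 and 788 CPM in other excitatory neurons. Tbr1, a factor of early-born pallial neurons, was higher in the Tfap2d cells, at 302 and 386 CPM against 141 and 171. Slc17a6, the vesicular glutamate transporter of young excitatory neurons, was at 157 and 157 CPM against 73.6 and 78.5, while Slc17a7, its partner in mature cortex, was low in both groups. Neurod2, Slc17a6 and Slc17a7 are part of the rule for the reference, so their levels there are partly built in. The Tfap2d cells were not selected on these genes or on Tbr1. The label of excitatory-like neurons therefore stands on the presence of these markers in the Tfap2d cells.

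Marker lists of other regions and cell types divided into some that were low or absent and some that were not. The 13 midbrain markers summed to 1.64 and 1.26 CPM, with 12 and 10 of the 13 at 0, and the 9 hypothalamic markers summed to 0.819 and 8.81 CPM, with 8 and 6 at 0. The 7 GABAergic markers outside the selection summed to 22.9 and 39.0 CPM, close to the 24.4 and 35.8 CPM of other excitatory neurons. Oligodendrocyte-lineage markers summed to 1.64 and 0.315 CPM, vascular markers to 6.55 and 6.29 CPM and meningeal markers to 1.64 and 5.03 CPM. The hippocampal list summed to 1076 and 1066 CPM against 539 and 508 CPM in other excitatory neurons, most of it from Zbtb20, and the striatal list to 2147 and 2554 CPM against 1326 and 1576 CPM, most of it from Meis2. The diencephalic list summed to 393 and 213 CPM against 389 and 375 CPM, most of it from Lhx2, at 343 and 181 CPM. The intermediate progenitor list summed to 820 and 479 CPM against 325 and 311 CPM. Among the other AP-2 genes only Tfap2c had more than a few UMIs, at 13.1 and 4.72 CPM from 16 and 15 UMIs. The list of 20 amygdala and claustrum markers gave no uniform answer: of 10 measured in the Tfap2d cells, Dner, Meis2, Zfp703 and Sema5a were higher than in other excitatory neurons in both libraries, Mef2c and Fezf2 were lower, and Cyp26b1 and Slc30a3 were at 0 in wild type with 3 and 0 UMIs in the knockout-labelled library. The list holds genes that other pallial neurons use too, so no region is named from it.

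Genes that differed between Tfap2d cells and other excitatory neurons were called at a difference of 1.5-fold or more. The difference had to lie in the same direction in both libraries, with both intervals leaving out 1. By this rule 190 of the 6859 genes with enough counts were higher (2.77%) and 276 were lower (4.02%). The median log2 ratio over all measured genes was 0.01 in each library. The rule asks for the same direction in both libraries, and genes outside it could differ between them: the log2 ratio of Eomes was 1.44 and 0.39, that of Neurog2 1.30 and 0.20, that of Bcl11b 0.21 and 1.05 and that of Pcdh17 -0.62 and 0.81. These cells were selected on Tfap2d within the same counts, so the genes describe the selected cells and no test is attached to them.

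Among genes of at least 50 CPM, ordered by the ratio nearer 0 of the 2 libraries, Thsd7a came first on the higher side. It stood at 164 CPM in wild-type and 310 CPM in knockout-labelled Tfap2d cells, against 7.32 and 13.7 CPM in other excitatory neurons, with log2 ratios of 4.48 (4.24 to 4.73) and 4.50 (4.37 to 4.63). After thinning to 3000 UMIs, 27.9% (19.8 to 37.2) and 43.7% (38.1 to 49.4) of Tfap2d cells had a Thsd7a UMI, against 1.88% (1.51 to 2.31) and 3.05% (2.61 to 3.55) of other excitatory neurons. Unthinned, these shares were 35.7% and 56.3% against 5.76% and 7.51%.

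The genes called higher included transcription factors, which were not counted as a group. Pbx3, a TALE-class homeodomain factor and partner of Hox and Meis proteins, stood at 130 and 118 CPM against 13 and 18.2 (log2 ratios 3.33 and 2.69). Npas3, a basic helix-loop-helix PAS factor, stood at 59.8 and 57.9 CPM against 4.66 and 6.76 (3.68 and 3.10). Tshz2 and Zfhx4, both zinc finger factors, had log2 ratios of 2.11 and 2.36, and of 2.02 and 1.70. Zbtb20, a factor of hippocampal and late-born neurons, and Meis2, a TALE factor of the lateral and ventral forebrain, were abundant, at 1019 and 922 CPM and at 2054 and 2353 CPM, with log2 ratios between 0.90 and 1.13. Each of these factors was higher in both libraries.

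Other genes called higher code for proteins of several kinds, at the cell surface, secreted or inside the cell. Cntnap2, a neurexin-family adhesion protein, had log2 ratios of 2.43 and 2.45, Dner, a Notch-like membrane protein, 2.36 and 2.24, and Cdh4, R-cadherin, 1.76 and 1.63. Sema5a, a transmembrane semaphorin, had 1.97 and 1.81. Tafa1, a secreted chemokine-like protein, had 2.21 and 2.22, Sstr2, a somatostatin receptor, 2.11 and 1.71, and Cxcl12, the chemokine that guides Cajal-Retzius cells and interneurons, 2.65 and 1.61. Rwdd3, a regulator of sumoylation, had 2.99 and 2.97, Pid1, an adaptor protein of lipoprotein receptor signalling, 2.96 and 2.16, and Rasgef1b, a Ras exchange factor, 1.74 and 2.10. Among 19 measured semaphorins, neuropilins and plexins, 6 were higher and 3 lower, beside 2.77% and 4.02% of all measured genes. Plxnd1 had 2.53 and 2.27 and Sema3a 1.52 and 1.26 on the higher side, and Nrp1 had -0.84 and -1.23 on the lower. Nrp2 was higher in the knockout-labelled library (134 against 45.4 CPM, 1.56) and did not pass 1.5-fold in wild type (40.1 against 28.6 CPM, 0.49).

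Of 8 measured markers of deep cortical layers 1 was higher and 3 were lower, and of 7 of superficial or late-born layers 1 was higher and 2 were lower. Mef2c, an activity-related factor of cortical neurons, stood at 260 and 261 CPM against 1137 and 1109 CPM (-2.13 and -2.09), and the cell-adhesion gene Opcml at 63.1 and 78.3 against 328 and 330 CPM. Fezf2, a factor of subcerebral projection neurons, was at 26.2 and 15.7 against 108 and 87.2 CPM. Reln and Npy, which mark Cajal-Retzius cells and interneurons, were at 0.819 and 4.09 CPM and at 6.55 and 9.75 CPM, against at least 50.1 CPM for either gene in the reference. The other leading genes on the lower side were Clstn2, Gucy1a1, Rspo3, Lrfn5, Dync1i1, Dok5, Tenm3 and Nap1l5, with log2 ratios between -4.01 and -2.13. Of 26 measured genes of synaptic adhesion, 6 were higher and 7 lower. None of 36 nuclear genes of oxidative phosphorylation and 7 of the WAVE complex was called in either direction. The counts of these lists stand beside 2.77% higher and 4.02% lower of all measured genes. A list of 7 genes is too short for an absence of calls to be read against these shares.

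**Figure D2:**
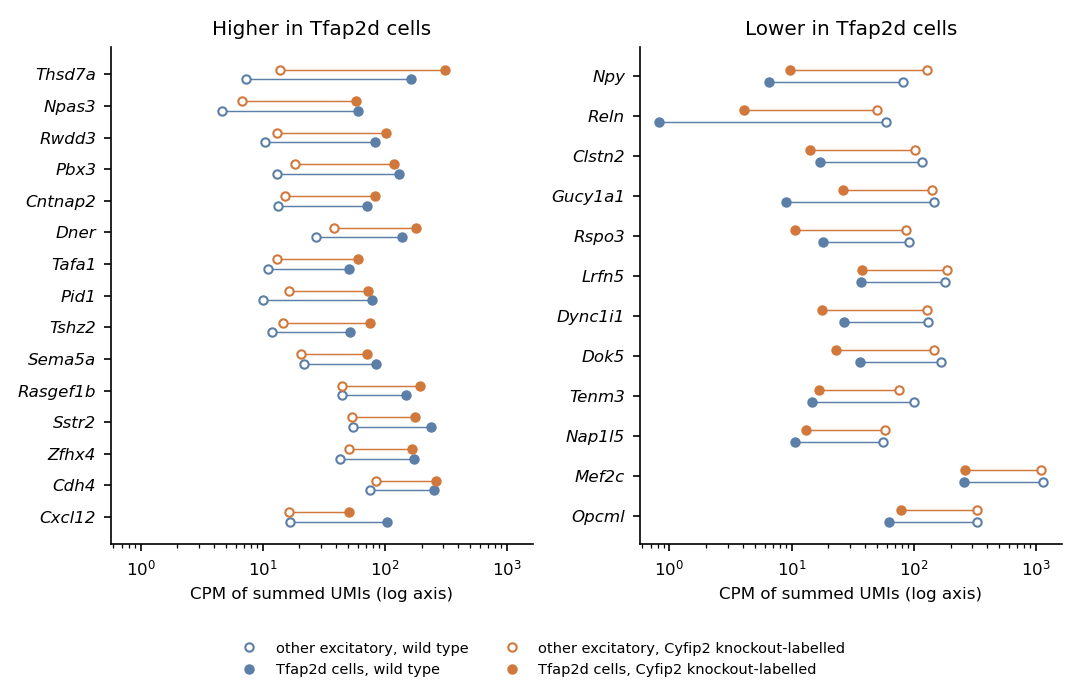
CPM on a log axis of the 15 leading genes on the higher side and the 12 on the lower side, in Tfap2d cells (filled) and other excitatory neurons (open) of each library; lines join the 2 cell groups of a library. Thsd7a has the widest gap on the left, at 164 and 310 CPM against 7.32 and 13.7 CPM.

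The palindrome GCCNNNGGC is the textbook AP-2 motif, and the promoters of the leading genes were searched for it in the RefSeq table of GRCm38.p6, using the 250 bases before each start. It reads the same on both strands, so 1 search covers both. It was found in 2 of the 12 higher genes and 2 of the 10 lower genes with a promoter in the table, 16.7% and 20.0%, against 15.4% of all 27025 genes in the table. The 2 higher genes are Pid1 and Rasgef1b, shown because they hold the matched letters, in capitals. Pid1 is on the minus strand at chr1:84284646-84284895 and Rasgef1b on the minus strand at chr5:99252928-99253177.
Pid1: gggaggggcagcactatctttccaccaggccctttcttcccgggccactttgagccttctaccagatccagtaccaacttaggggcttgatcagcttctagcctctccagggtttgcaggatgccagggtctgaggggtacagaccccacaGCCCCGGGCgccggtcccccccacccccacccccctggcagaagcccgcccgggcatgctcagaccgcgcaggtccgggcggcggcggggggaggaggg
Rasgef1b: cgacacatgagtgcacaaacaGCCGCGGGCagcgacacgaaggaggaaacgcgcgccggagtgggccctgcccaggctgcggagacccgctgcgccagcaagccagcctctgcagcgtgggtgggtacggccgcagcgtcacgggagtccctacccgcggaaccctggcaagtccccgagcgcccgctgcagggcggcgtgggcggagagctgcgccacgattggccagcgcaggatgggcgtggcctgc
A match describes these letters and is no evidence of binding.

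Over 29 clusters of all cells, the genes whose CPM followed that of Tfap2d most closely were Gcg (Pearson's r 0.89), Sstr2 (0.75), Unc5d (0.73), Sorl1 (0.72) and Rnd2 (0.70). Gcg encodes proglucagon, and Unc5d and Rnd2 are known for roles in multipolar migrating neurons. Over both libraries Gcg was highest in cluster 7, at 47.6 CPM. Sstr2 and Rnd2 were highest in cluster 9, at 304 and 414 CPM, and Unc5d and Sorl1 in cluster 2. The clusters share libraries and depth, and a correlation over 29 points of this kind is a description.

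The Tfap2d cells were not uniform, and Thsd7a divided them. A Thsd7a UMI was present in 40 wild-type and 179 knockout-labelled Tfap2d cells and absent from 72 and 139. Of the Tfap2d cells with a Thsd7a UMI, 37 and 170 lay in cluster 7 of all cells, against 16 and 67 of those without. Thsd7a is the first leading gene of cluster 7 and was not left out of the clustering. This placement is therefore partly built in and is no separate evidence for the split. Over all Tfap2d cells, 53 and 237 lay in cluster 7, 27 and 42 in cluster 9 and 14 and 17 in cluster 4. The leading genes of cluster 9 include the intermediate progenitor genes Eomes and Neurog2. Tfap2d cells made up 39.3% and 35.1% of cluster 7, and 61.5% and 51.4% of its cells had a Tfap2d UMI. Its cells without one belong to the reference where they meet its limits. Genes called higher therefore need not be particular to the Tfap2d cells. The libraries were not aligned before clustering, and Nrp2, Rftn1 and Shisal1, among the 10 leading genes of cluster 7, themselves differed between the libraries within it, so the size of that cluster is not compared.

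Genes of projection neurons and axon growth were higher in Tfap2d cells with Thsd7a. Bcl11b, a factor of deep-layer and striatal projection neurons, stood at 687 CPM in wild-type cells with Thsd7a and 150 CPM in those without (log2 ratio 2.20, 1.89 to 2.52), and at 864 against 468 CPM in the knockout-labelled library (0.89, 0.75 to 1.02). Islr2, which takes part in axon growth, stood at 591 against 79.7 CPM and at 691 against 272 CPM. Tafa1, Npas3, Dner and Gcg were all higher with Thsd7a in both libraries, with log2 ratios from 1.58 to 4.23, and Nrp2 stood at 81.5 against 19.6 and at 171 against 88.2 CPM.

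Genes of the intermediate progenitor stage were found mainly in Tfap2d cells without Thsd7a. Eomes stood at 327 CPM in wild-type cells without Thsd7a and 4.94 CPM with it, and at 200 against 9.71 CPM in the knockout-labelled library. Neurog2, a proneural factor of progenitors and newborn neurons, stood at 278 against 29.7 CPM and at 155 against 43.4 CPM. Sstr2 and Unc5d had the same direction, with log2 ratios of cells with over cells without Thsd7a from -1.26 to -1.14. Slc17a6 stood at 158 against 157 CPM in wild type and at 135 against 185 CPM in the knockout-labelled library (-0.46, -0.71 to -0.20), and Cyfip2 at 89.0 against 84.6 and at 76.5 against 77.0 CPM.

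**Figure D3:**
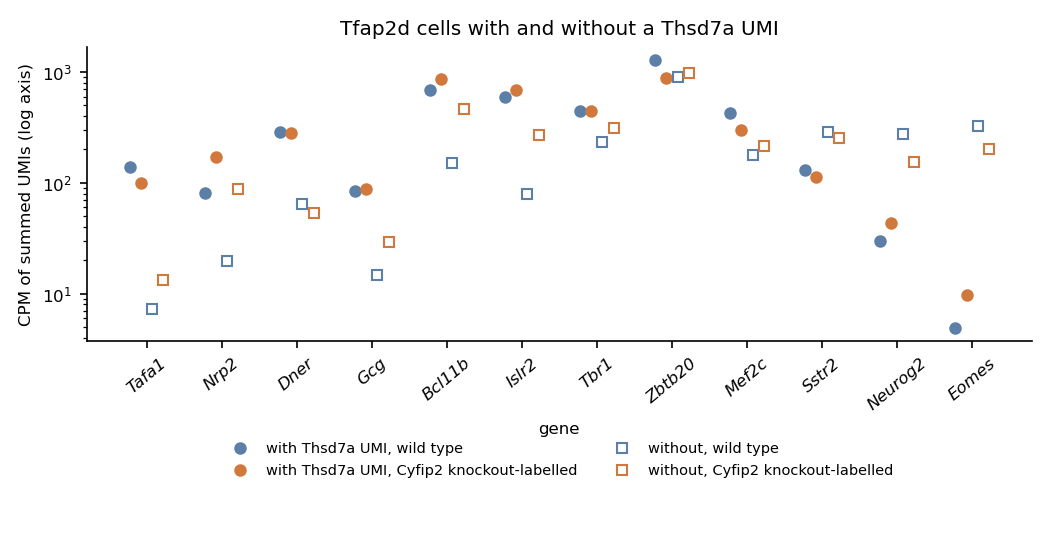
CPM on a log axis of 12 genes in Tfap2d cells with a Thsd7a UMI (filled circles) and without one (open squares), by library. Tafa1, Nrp2, Dner, Bcl11b and Islr2 lie higher with Thsd7a in both libraries, and Neurog2 and Eomes lie lower.

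The difference in share between the libraries lay mostly in the Thsd7a side. Tfap2d cells with a Thsd7a UMI made up 0.440% (0.315 to 0.599) and 1.39% (1.20 to 1.61) of called cells, a ratio of 3.16 (2.24 to 4.58), and those without made up 0.792% (0.621 to 0.997) and 1.08% (0.910 to 1.28), a ratio of 1.37 (1.02 to 1.84). Tfap2d cells with an Eomes UMI made up 0.330% and 0.420%, a ratio of 1.27 (0.80 to 2.06), and those without made up 0.903% and 2.05%, a ratio of 2.28 (1.77 to 2.95). Thsd7a was also higher in the other excitatory neurons of the knockout-labelled library (log2 ratio 0.91, 0.75 to 1.07), and its level in barcodes with under 100 UMIs was 10.8 and 23.0 CPM. How much of the split these levels account for was not tested. Dissection and genotype cannot be told apart here.

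**Figure D4:**
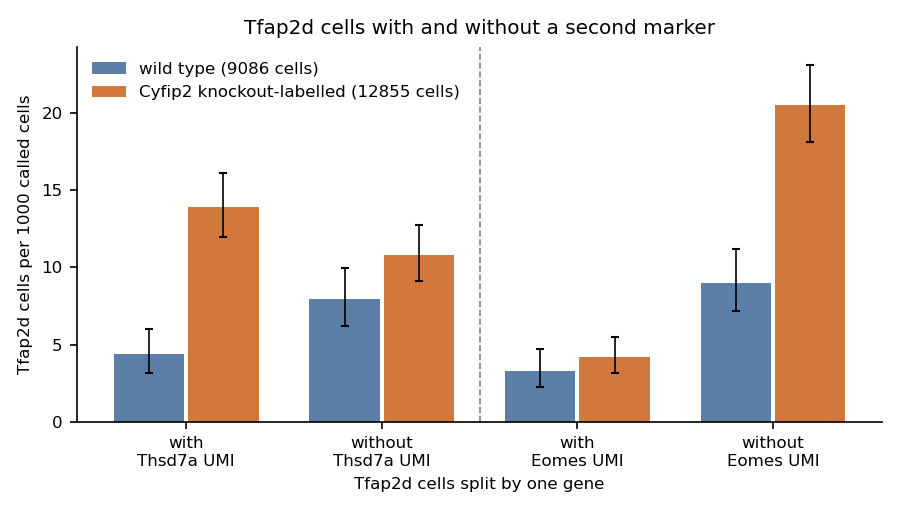
Tfap2d cells per 1000 called cells (y axis), split by a UMI of Thsd7a (left of the dashed line) and of Eomes (right); bars are the 2 libraries and error bars exact 95% binomial intervals. Cells with Thsd7a numbered 40 of 9086 and 179 of 12855, and cells with Eomes numbered 30 and 54.

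The last comparison sets the Tfap2d cells of the 2 libraries against each other, and asks which genes differ in them when Cyfip2, a subunit of the WAVE complex that drives branched actin, is targeted. By the 1.5-fold rule, with the interval leaving out 1, the knockout-labelled cells had 181 higher genes (2.55%) and 277 lower genes (3.9%) out of 7097 with enough counts. With a size factor from the median of ratios in place of total UMIs the counts were 235 and 229, so the excess of lower over higher genes depends on the scaling. In other excitatory neurons, whose summed counts are far deeper, 13 of 6776 genes were higher (0.192%) and 4 were lower (0.059%). The intervals are not adjusted for the number of genes, and with 99.9% intervals 65 and 96 genes remained.

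Several of the genes with the largest ratios on the higher side rested on 1 cell. Tyrobp, C1qb, C1qc, Ccl3, Apoe and Sparc, most of them genes of microglia, took most of their UMIs from 1 knockout-labelled Tfap2d cell with 34010 UMIs, 13 of them of Tfap2d, which lay in cluster 23, led by C1qa. It held 314 of the 329 microglial marker UMIs of all knockout-labelled Tfap2d cells, and the wild-type Tfap2d cells held 1 in all. Tyrobp went from 30.2 to 0 CPM and Apoe from 138 to 24.2 CPM without that cell, against 0.819 and 20.5 CPM in wild type. Without that cell, a choice made after its values were seen, 171 genes were higher and 279 lower.

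The leading higher genes that did not rest on it were Fst, Ppp1r1b, Zic1, Fam174b and Rftn1. Fst, an activin-binding protein, stood at 2.46 and 39.3 CPM from 3 and 125 UMIs (log2 ratio 4.0, 2.42 to 6.30), with 3.73 (1.85 to 6.80) within cluster 7 and -0.56 in other excitatory neurons. Ppp1r1b, a signalling protein best known from striatal neurons, stood at 2.46 and 29.2 CPM from 3 and 93 UMIs (3.57, 1.98 to 5.88). Zic1, a zinc finger factor of medial forebrain, stood at 6.55 and 36.8 CPM (2.49, 1.46 to 3.74) and was also higher in other excitatory neurons (0.64, 0.54 to 0.73). Rftn1, a lipid raft protein, stood at 8.19 and 34.6 CPM (2.08), with 1.23 in other excitatory neurons. Fam174b had a log2 ratio of 2.17 in the Tfap2d cells and -0.11 in other excitatory neurons. Each rests on 10 or fewer wild-type UMIs. Clustering the Tfap2d cells alone gave 5 groups. Ppp1r1b, Rftn1, Nrp2, Zic1 and Fam174b were among the leading genes of a group with 6 wild-type and 98 knockout-labelled cells. Fst was among those of a group with 20 and 81. The ratios over all Tfap2d cells therefore need not hold in each group. The groups come from the same counts without alignment, so genes that differ between the libraries can help to form them. The part of these groups in the ratios was not tested.

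Nrp2, Pcdh17, Pcdh19, Dcc, Bcl11b and Thsd7a were among the genes called higher. Nrp2 stood at 40.1 and 134 CPM (1.74, 1.31 to 2.19), with 1.32 (0.82 to 1.86) within cluster 7 and 0.67 in other excitatory neurons. The protocadherins Pcdh17 and Pcdh19 stood at 35.2 and 107 CPM and at 33.6 and 80.5 CPM, and Dcc, the netrin receptor, at 98.3 and 187 CPM. Bcl11b stood at 328 and 686 CPM (1.07, 0.91 to 1.22) and at a log2 ratio of 0.50 (0.32 to 0.69) within cluster 7, short of 1.5-fold. Thsd7a stood at 164 and 310 CPM (0.92) and at 0.16 (-0.06 to 0.40) within cluster 7, where its interval holds a ratio of 1. Cluster 7 is itself led by Thsd7a, so a similar level within it is partly built in. Of 18 measured semaphorins, neuropilins and plexins, 3 were higher and 1 lower, with a median of -0.10 beside -0.02 over all genes, and of 13 cadherins and protocadherins 3 were higher and 1 lower, with a median of 0.22. Of 10 Robo, Slit, netrin and Flrt genes, the list that holds Dcc, 1 was higher and 2 were lower. Of 13 Eph receptors and ephrins 1 was higher and 2 were lower. The counts of these lists stand beside 2.55% higher and 3.9% lower of all measured genes.

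Genes of intermediate progenitors were lower in the knockout-labelled Tfap2d cells. Eomes stood at 220 and 95.3 CPM (-1.21, -1.45 to -0.97) and Neurog2 at 196 and 93.7 CPM (-1.06), and 3 of 5 measured intermediate progenitor markers were lower and none higher, with a median of -0.86. Of 6 measured markers of radial glia and progenitors 1 was higher and 2 were lower, with a median of -0.54. Over all measured genes 2.55% were higher and 3.9% lower, with a median of -0.02. Within cluster 7 the median of the intermediate progenitor markers was 0.12, with Eomes at 0.24 (-1.16 to 1.98), and that of the radial glia markers was -0.18. The summed level of the intermediate progenitor list was 820 and 479 CPM over all Tfap2d cells. It was 286 and 275 CPM inside cluster 7 and 1170 and 893 CPM outside it. Tfap2d cells without a Thsd7a UMI, where Eomes stood higher, were 72 of 112 and 139 of 318. Their part in the lower level was not tested. Cdk6, a cell-cycle kinase, stood at 167 and 61.0 CPM (-1.45, -1.74 to -1.16) and at -1.45 (-2.35 to -0.52) within cluster 7. The 12 genes with the largest ratios on the lower side were Sox6, Creb5, B3glct, Snhg18, Syn2, Pdzrn3, Cdk6, Nanos3, Otx1, Slc30a10, Btbd17 and Tmem218, with log2 ratios from -2.06 to -1.26. In other excitatory neurons these 12 lay between -0.31 and 0.05.

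**Figure D5:**
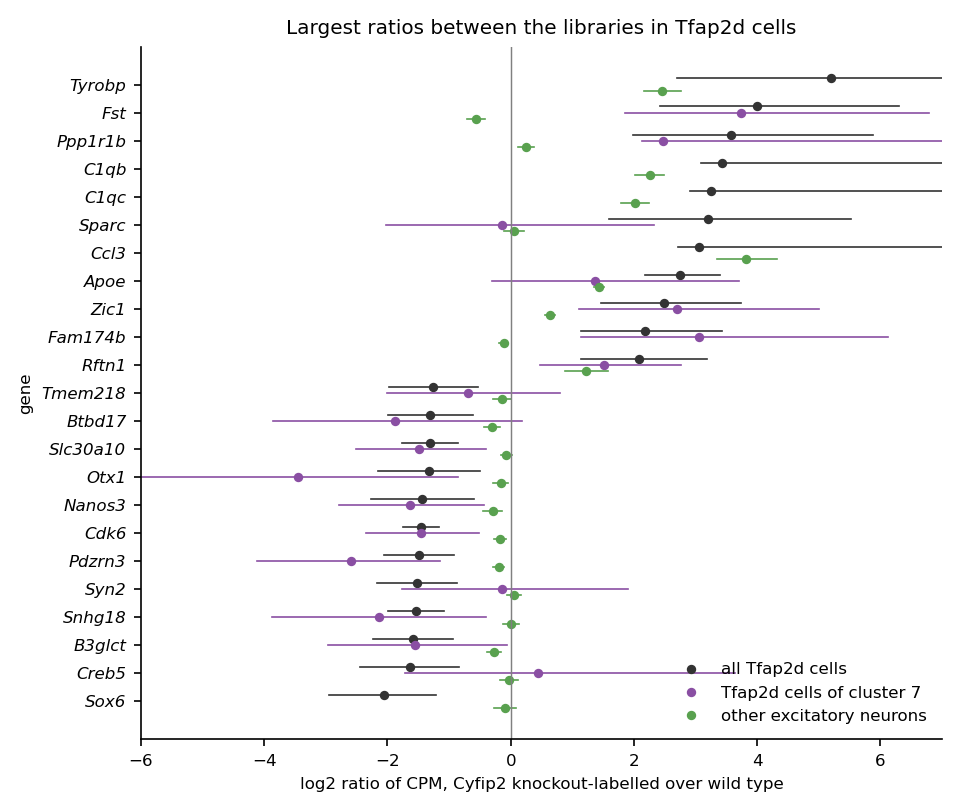
log2 ratio of CPM, knockout-labelled over wild type (x axis), of genes with the largest ratios in each direction; points are all Tfap2d cells, those of cluster 7 and other excitatory neurons, and lines are 95% counting intervals, drawn up to the axis limits. Tyrobp to Apoe on the upper side include the genes that rest mostly on 1 cell.

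Genes of the machinery that Cyfip2 belongs to showed no called difference over all Tfap2d cells. Of the WAVE complex 7 genes were measured and none was called, with log2 ratios from -0.26 to 0.46 and a median of 0.01, and of 37 measured actin regulators none was called, with a median of 0.03. Within cluster 7 alone, 1 of 7 WAVE genes was higher and 1 lower, and 2 of 37 actin regulators were lower. None of 36 nuclear genes of oxidative phosphorylation was called (median 0.05). Hypoxia and glycolysis genes had 3 higher and none lower of 17, with Bnip3 at 10.7 and 24.2 CPM, and cholesterol biosynthesis 2 higher and 1 lower of 17. These counts stand beside 2.55% and 3.9% of all measured genes.

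Part of these calls stood within cluster 7, whose cells are a part of all Tfap2d cells, so that an overlap is partly built in. There, 190 genes were called higher and 279 lower out of 6800 measured. Of the 181 higher genes, 165 were measured in cluster 7 and 62 were called higher there. Of the 277 lower genes, 163 were measured in cluster 7 and 69 were called lower there. With equal weight given to cluster 7 and the other Tfap2d cells, 143 genes were higher and 195 lower. The wild-type side of cluster 7 holds only 53 Tfap2d cells, so its intervals are wide.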

How the data were processed

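The deposited tables hold raw UMI counts for every gene in every droplet barcode, cells or not. Cell Ranger 4 made them per the file headers, on mm10 per the submitters' processing notes; which gene annotation it used is not stated in the sources. Per the labels' protocols forebrains were dissociated with papain. Cells were called at 1000 or more UMIs, 500 or more genes and no more than 10% mitochondrial UMIs. Counts were summed over cells and scaled to CPM, and genes under 20 CPM in both groups or under 50 summed counts were not used. Ratios carry exact intervals of a ratio of Poisson counts. The call at 1.5-fold, with an interval leaving out 1, sorts genes by size and tests nothing. Against a count of 0 a ratio is a bound from a floor of 3 counts. Named genes are 12 per direction between the libraries, taken from the largest ratios, and 15 higher and 12 lower against other excitatory neurons, of at least 50 CPM, by the ratio nearer 0; Xist, Y-linked, haemoglobin, mitochondrial and unnamed genes were not named, and genes of the marker and gene lists are named besides. Some genes that these rules reach are not reported here. Scrublet scores marked 660 and 1322 cells as doublets (0.8% per 1000 called cells), kept in the main values; of the Tfap2d cells 6 and 22 were marked. Clusters were made with scanpy 1.11.5 (2000 variable genes, 30 components, 15 neighbours, Leiden resolution 1), without alignment. The ratio rule was tested on simulated data. Members and lists were chosen with earlier results of these data known.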

Additional observations from a re-analysis of the deposited data

Results flagged for a closer look

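Tfap2d was also counted in barcodes with under 100 UMIs, which the main comparisons do not use. Their profile was subtracted only in alternative settings. They held 12 Tfap2d UMIs (3.69 CPM, 1.91 to 6.45) in the wild-type library and 35 UMIs (9.38 CPM, 6.53 to 13) in the knockout-labelled library, a ratio of 2.54 (1.29 to 5.37). The level is above that of the wild-type library, and its part in the shares of Tfap2d cells was not tested.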

How the results depend on the processing

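No paired analysis was possible because each group has 1 library and the labels give no replicate numbers. The ratio of shares of Tfap2d cells, 2.01, was 1.60 with at least 1 Tfap2d UMI. After thinning, where the threshold was also 1 Tfap2d UMI, it was 1.60, so this value is not set against 2.01. The ratio was between 2.04 and 2.49 with at least 3 Tfap2d UMIs, at least 2000 UMIs, at most 5% mitochondrial UMIs, without doublets or over excitatory cells. In splits chosen after seeing the data it was 3.16 with a Thsd7a UMI, 1.37 without, 1.27 with an Eomes UMI and 2.28 without. Against other excitatory neurons, 298 genes were higher with a reference of at least the median depth of the Tfap2d cells, and 84 higher and 126 lower at 2-fold. Between the libraries, 346 genes were higher with at least 10 counts and no CPM minimum, 57 higher and 42 lower at 2-fold, 105 and 143 after thinning to 3000 UMIs, and, in alternatives chosen after seeing the data, 136 lower outside cluster 7 and 65 higher and 96 lower with 99.9% intervals. With the median of ratios 50.7% of calls were higher, against 39.5%. Within cluster 7 the log2 ratio of Sparc was -0.14 and that of Creb5 was 0.45 (-1.72 to 3.65), both against the direction over all Tfap2d cells. Of the 72 Sparc UMIs in knockout-labelled Tfap2d cells, 58 lay in the 1 cell of cluster 23, outside cluster 7. Creb5 stood at only 4.14 and 5.64 CPM in cluster 7, and its interval holds a ratio of 1. The cause was not tested. The depth of the wild-type Tfap2d cells, 1220678 UMIs in 112 cells, limits what can be seen in genes of low level.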
